A study of Homo sapiens with 11 samples.

Results

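The 10 genes described here are the NDR kinase genes STK38 and STK38L, the LATS kinase genes LATS1 and LATS2, the MST kinase genes STK4 and STK3, the co-activator genes YAP1 and WWTR1, and the YAP target genes CCN1 and CCN2. They were matched by symbol to Ensembl identifiers and were 10 of the 23167 identifiers in the count tables, and all 10 passed the filter on low counts. STK38L was chosen by its measured log2 fold change between WT and mH2A1.1 KD cells and the others as its paralogues, partners and targets, so the difference between WT and KD is given for them as a description, without a p-value. RNA-seq was from MDA-MB-231 cells, an established human triple-negative breast cancer line, with 2 WT and 2 mH2A1.1 KD libraries. KD cells received siRNA against mH2A1.1, the splice isoform of the histone variant mH2A1 (macroH2A1), at 11 nM and were collected at day 3. WT cells received the transfection reagent INTERFERin with no siRNA, so that loss of mH2A1.1 and the presence of siRNA cannot be told apart in this design. ChIP-seq was from WT cells, with 1 library for a polyclonal antibody made against mH2A1.1 and 1 for the antibody Ab37264 against total mH2A1.

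In the Hippo pathway, the MST kinases, encoded by STK4 (MST1) and STK3 (MST2), act with the scaffold SAV1 and the MOB1 proteins to activate the LATS kinases. The LATS kinases phosphorylate YAP (YAP1) and TAZ (WWTR1) and keep them in the cytoplasm, and unphosphorylated YAP and TAZ enter the nucleus and bind TEAD factors at genes such as CCN1 (CYR61) and CCN2 (CTGF), which encode secreted matrix proteins. NDR1 (STK38) and NDR2 (STK38L) belong to the same kinase family as LATS1 and LATS2, are also bound by MOB proteins and activated by MST kinases, and act in cell division, morphology and autophagy. YAP and TAZ activity is well known in triple-negative breast cancer lines.

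Gene counts totalled 9794674 and 7856892 for the WT libraries, 5584962 for KD replicate 1 and 2309549 for KD replicate 2. KD replicate 2 had 0 counts on chromosomes 22 and X and 30 on chromosome 21, where no member lies, and these chromosomes were left out of the comparison. Of the markers of the line, VIM, CD44, AXL and FN1 had at least 2214 counts in every library, whereas SPARC, which was listed with them, had 2 to 8. ESR1 and PGR had 0 counts in every library, CDH1 had 2 to 22, EPCAM 45 to 189 and ERBB2 270 to 760. MACROH2A1, the gene of both mH2A1 isoforms, had 3658 and 2993 counts in WT and 1449 and 635 in KD, and its gene count cannot tell mH2A1.1 from mH2A1.2. Its log2 fold change was -0.44 (SE 0.17), with an adjusted p of 0.204 in edgeR's quasi-likelihood test.

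In WT cells, the YAP targets had the highest transcript levels among the 10 genes and the kinase genes STK38L and STK3 the lowest. Levels are TMM-normalized counts scaled to library size (CPM), here divided by the length of all annotated exons in kb so that genes can be set against each other. CCN1 had 333 ± 0.486 CPM per kb (SD, n = 2) and CCN2 192 ± 10.9. STK38 followed with 96.1 ± 0.0660, YAP1 with 52.4 ± 2.29 and WWTR1 with 23.5 ± 1.36. LATS2 had 14.2 ± 0.342, LATS1 10.8 ± 0.985 and STK4 10.1 ± 0.0907. STK38L had 6.57 ± 0.983 and STK3 3.87 ± 0.350. The WT libraries of neighbours in this order overlapped for LATS1 and STK4 only, and with 2 libraries a group this order was not tested. On this scale per kb, the WT level of STK38 was above that of STK38L, CCN1 above CCN2, YAP1 above WWTR1, LATS2 above LATS1 and STK4 above STK3.

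Peaks of mH2A1.1 lay at the starts of most of these genes in WT cells, and most of those peaks were in the mH2A1.1 list alone. A peak of the mH2A1.1 list lay within 500 bp of the annotated start of 7 of the 10 genes, STK38, STK38L, LATS2, STK3, YAP1, CCN1 and CCN2. The same was so for 46.9% of the 10943 genes tested for expression, and with 1 library per antibody no test was made. Peaks that shared at least 1 bp with a peak of total mH2A1 lay at the starts of STK38 and CCN1, against 26.2% of tested genes. For its own analyses the paper kept only peaks common to both antibodies, 11849 of the 30687 in the mH2A1.1 list. At STK3 and STK4 the mH2A1.1 peak nearest the start adjoined a total mH2A1 peak without sharing a base. The STK38 peak alone was covered over at least 50% of its width, against 16.3% of tested genes with such a peak. Total mH2A1 peaks themselves lay at the starts of STK38 and STK4, against 18.4% of tested genes.

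STK38L (ENSG00000211455) lies on the plus strand of chromosome 12 at chr12:27243968-27325959 in GRCh38. Its start was covered by a single 3000 bp mH2A1.1 peak at chr12:27243001-27246000, and another of the same width lay in an intron at chr12:27270001-27273000. No total mH2A1 peak lay in the gene or within 10 kb of it, and the nearest was 69968 bp from its start. STK38 (ENSG00000112079) differed, since the start of this gene (chr6:36493892-36547479, minus strand) was covered by an mH2A1.1 peak of 3000 bp, chr6:36546001-36549000, that lay inside a total mH2A1 peak of 48000 bp reaching upstream. STK4 had a total mH2A1 peak over its start, with the nearest mH2A1.1 peak beginning 507 bp downstream. LATS1 (chr6:149658153-149718105, minus strand) was the member with no peak of either list in its body, and the mH2A1.1 peak nearest to its start was 71896 bp away. WWTR1 had no peak at its annotated start but 5 mH2A1.1 peaks over 15.0% of its length, the first of them 18714 bp downstream, and at least 1 of them at the start of a shorter transcript. CCN1 lay entirely within an mH2A1.1 peak of 15000 bp, and 74.2% of CCN2 lay within a peak of 3000 bp. Over all tested genes, 72.3% had an mH2A1.1 peak in their body, and the median share of the body covered was 8.29%.

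**Figure D1:**
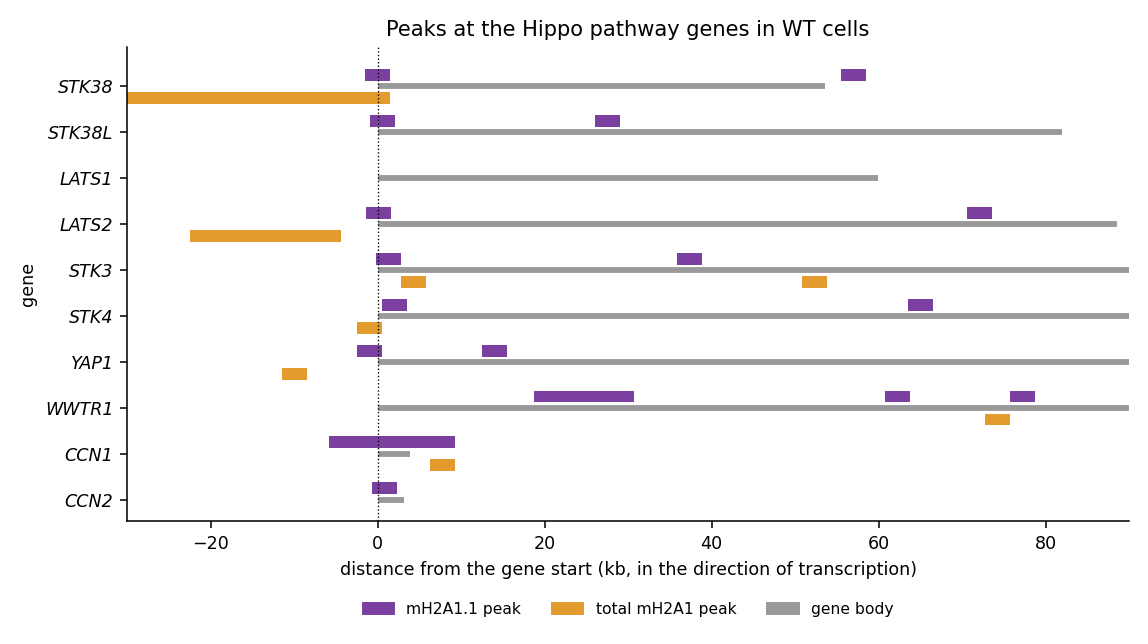
Peaks of the mH2A1.1 list (purple) and of the total mH2A1 list (orange) around the starts of the 10 genes in WT MDA-MB-231 cells, 1 ChIP-seq library each, with distance from the start in kb along the direction of transcription and gene bodies in grey. An mH2A1.1 peak covers the start of 7 genes, STK4 has its peak 507 bp downstream, and no peak lies in LATS1. Peaks, gene bodies and the 48000 bp total mH2A1 peak of STK38 are cut at the edges of the window shown.

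Start regions were taken from RefSeq (GRCh38.p14), which held 9 entries for 7 of the 10 genes. Those printed here are STK38L, whose count differed most, LATS1, which lacks a peak, and CCN2, whose stretch carries the most copies of the TEAD core motif GGAATG. Each is read 5′ to 3′ on the gene's strand, before the RefSeq start and without annotated exons of the gene. The RefSeq start of STK38L, 27244286, lies downstream of the gene start used for the peaks, 27243968, and so does its printed stretch. Capitals mark TGACGTCA, the full cAMP-response element, in STK38L and GGAATG in CCN2, and LATS1 held neither. The TGACGTCA motif was chosen after the sequence was seen.
STK38L, chr12:27244109-27244232, plus strand: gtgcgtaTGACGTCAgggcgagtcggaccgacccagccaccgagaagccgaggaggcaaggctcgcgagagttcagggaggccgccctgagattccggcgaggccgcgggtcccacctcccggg
LATS1, chr6:149718106-149718351, minus strand: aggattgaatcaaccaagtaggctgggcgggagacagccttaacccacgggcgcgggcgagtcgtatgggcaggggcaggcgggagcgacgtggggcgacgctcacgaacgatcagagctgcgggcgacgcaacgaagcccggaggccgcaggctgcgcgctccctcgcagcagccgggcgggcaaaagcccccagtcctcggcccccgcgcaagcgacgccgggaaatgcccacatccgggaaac
CCN2, chr6:131951373-131951622, minus strand: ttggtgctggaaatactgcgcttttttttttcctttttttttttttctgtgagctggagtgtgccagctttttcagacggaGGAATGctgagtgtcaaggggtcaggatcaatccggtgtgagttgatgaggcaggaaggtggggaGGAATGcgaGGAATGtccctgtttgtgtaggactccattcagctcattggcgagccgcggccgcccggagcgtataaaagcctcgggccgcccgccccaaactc

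Motifs were sought as letters on both strands in the 250 bases before each RefSeq start. GGAATG occurred 3 times in CCN2, at positions 82, 147 and 156, and once in YAP1, and it was not among the letters of the other entries. Of all 35116 start regions of this length, 11.9% held GGAATG and 0.0826% held it at least 3 times. TGACGTCA occurred at position 81 of the 250 bases of STK38L and in 1.65% of all start regions. The TATA-box letters TATAAA occurred in CCN2, at position 219, and in an internal start of LATS1, and in 10.7% of all start regions. The 250 bases of STK38L were 72% GC with 29 CG pairs, those of CCN2 53.2% with 13, and the median over all start regions was 58% with 11. The printed stretches of STK38L and CCN2 lay inside the mH2A1.1 peaks at their starts, and that of LATS1 lay in none.

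In mH2A1.1 KD cells, STK38L had 34.4% of its WT level whereas its paralogue STK38 had 115%. For STK38L, WT replicates 1 and 2 gave 473 and 306 counts and KD replicates 1 and 2 gave 109 and 22, or 49.8, 40.3, 20.6 and 10.4 CPM. The KD libraries were both lower than either WT library, at 45.8% and 23.1% of the WT mean, and the KD libraries differed from each other more than the WT libraries did. The log2 fold change of STK38L was -1.45 (SE 0.31), and 49 of the 10943 genes tested (0.448%) had a lower value. STK38 had 3273, 2616, 2434 and 701 counts in the same order, or 345, 344, 461 and 332 CPM. Its KD libraries lay on either side of the WT libraries, and its log2 fold change was 0.20 (SE 0.21). In bulk RNA, fewer cells with a transcript and less of it per cell cannot be told apart.

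Among the kinases upstream and beside NDR, STK3 showed the second lowest log2 fold change of the 10 genes. STK3 had 51.9 and 45.7 CPM in WT and 34.2 and 24.6 CPM in KD, with no overlap of the groups and a log2 fold change of -0.70 (SE 0.23). Its paralogue STK4 had 167 and 169 CPM in WT and 166 and 142 CPM in KD. The STK4 difference was small, at -0.12 (SE 0.18), although the groups did not overlap. LATS1 had 97.6 and 85.7 CPM in WT and 83.8 and 62.5 CPM in KD, again without overlap, and a log2 fold change of -0.31 (SE 0.21). LATS2, which is itself a YAP target, had 80.8 and 78.1 CPM in WT and 73.6 and 81.9 CPM in KD. The KD libraries of LATS2 spanned the WT libraries, and its log2 fold change was -0.04 (SE 0.18).

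The co-activators differed little. YAP1 had 341 and 320 CPM in WT and 321 and 272 CPM in KD, so that the groups overlapped narrowly, and its log2 fold change was -0.15 (SE 0.18). WWTR1 had 204 and 188 CPM in WT and 165 and 162 CPM in KD. Its KD libraries were below the WT libraries and close to each other, and its log2 fold change was -0.27 (SE 0.17).

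For both of the 2 YAP targets the KD libraries stood apart from each other, and the sign for CCN2 depended on the KD library left out. CCN1 had 1231 and 1229 CPM in WT and 1294 and 1926 CPM in KD, with a log2 fold change of 0.39 (SE 0.23). Both KD libraries of CCN1 were above the WT libraries, and most of the difference came from KD replicate 2, without which the log2 fold change was 0.08. CCN2 had 467 and 431 CPM in WT and 338 and 527 CPM in KD, so that KD replicate 1 was below and KD replicate 2 above both WT libraries. Its log2 fold change was -0.06 (SE 0.24), or -0.41 without KD replicate 2 and 0.22 without KD replicate 1. A fit with 1 KD library does not measure the spread within KD, so no SE is given for it here.

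**Figure D2:**
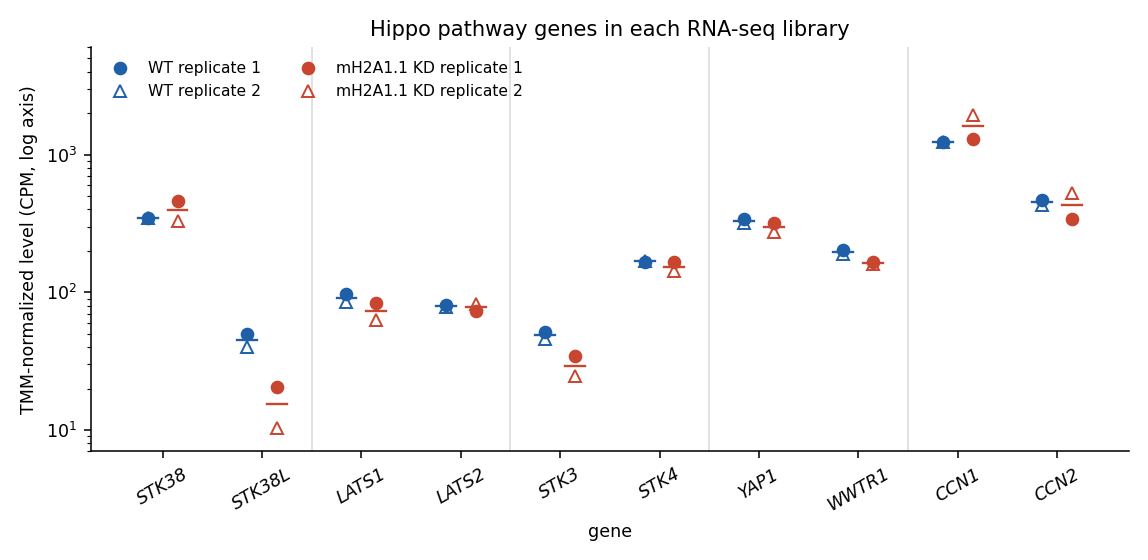
TMM-normalized level (CPM, log axis) of the 10 genes in each of the 4 RNA-seq libraries, with WT in blue, mH2A1.1 KD in red, replicate 1 as filled circles, replicate 2 as open triangles and the group mean as a bar. The groups are farthest apart for STK38L (45.1 CPM in WT and 15.5 CPM in KD), and the KD libraries of CCN2, STK38 and LATS2 fall on either side of the WT libraries.

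Across the 10 genes, the KD libraries were both lower than either WT library for 5 genes (STK38L, LATS1, STK3, STK4 and WWTR1) and both higher for CCN1 alone. Of all genes tested, 32.4% were lower and 32.5% higher in this way. Genes were called at the study's thresholds, a fold change above 1.5 with an adjusted p below 0.1. By these, edgeR called 0 of 10943 genes in its quasi-likelihood test (0% lower and 0% higher), with 0.175 as the lowest adjusted p. At an unadjusted p under 0.05 it had 1252 genes lower in KD (11.4%) and 1289 higher (11.8%). DESeq2, the tool of the study, called 445 genes lower (4.07%) and 472 higher (4.31%), and of the 10 genes it called STK38L, as lower. Nothing is read from these member counts, because the choice of members used the same contrast. The median log2 fold change was -0.14 over the 10 genes and 0.01 over all genes tested.

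The share of reads within a pair of paralogues does not depend on the scaling of the libraries. STK38L took 12.6% of the reads of STK38L and STK38 in WT replicate 1 (95% Clopper-Pearson interval 11.6% to 13.7%) and 10.5% in WT replicate 2 (9.38% to 11.6%). In KD it took 4.29% (3.53% to 5.15%) and 3.04% (1.92% to 4.57%). The KD intervals lay below the WT intervals, and the means were 11.5% ± 1.52 in WT and 3.66% ± 0.879 in KD (SD, n = 2). The intervals cover counting error only. The share uses the counts of the contrast that chose STK38L, so the gap between the intervals is a description and not a test. STK3 took 22.5% ± 1.74 of the reads of the MST pair in WT and 15.9% ± 1.65 in KD. Its shares did not overlap between the groups, but its intervals did, at 19.3% to 23.4% in WT replicate 2 and 14.9% to 19.5% in KD replicate 1. CCN2 took 26.7% ± 1.09 of the reads of the CCN pair in WT and 21.1% ± 0.548 in KD, so that its share was lower in both KD libraries although its level was higher in KD replicate 2. LATS1 took 53.5% ± 1.67 of the LATS pair in WT and 48.3% ± 7.05 in KD, and YAP1 62.7% ± 0.328 of the YAP and TAZ pair in WT and 64.4% ± 2.38 in KD. For these last pairs the libraries of the groups overlapped. The genes of a pair can differ in base composition, which the share does not remove, and the exonic GC content of STK38L was 8.96 percentage points below that of STK38.

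**Figure D3:**
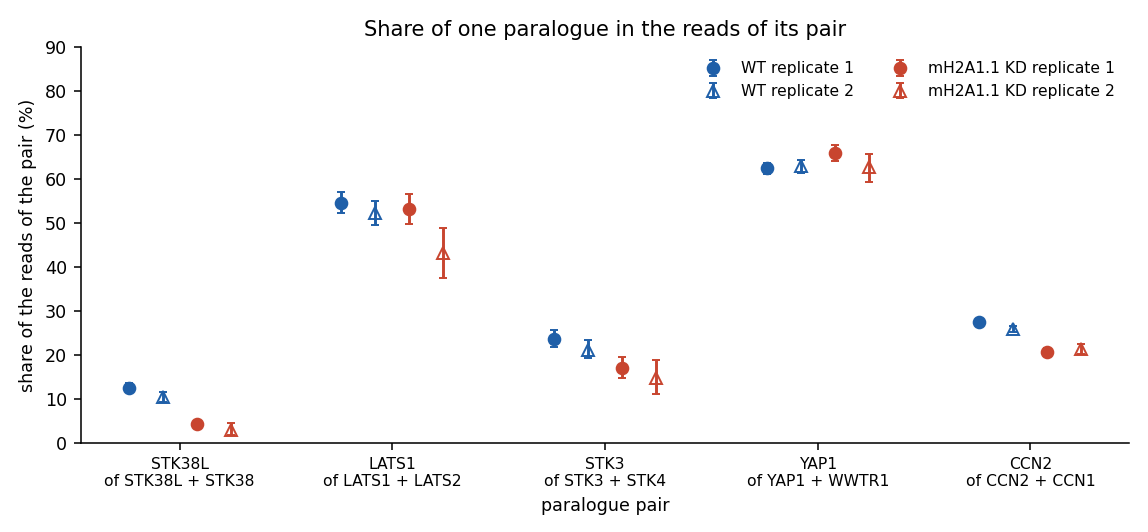
Share (%) of the first paralogue in the reads of its pair in each RNA-seq library, with WT in blue, mH2A1.1 KD in red, replicate 1 as filled circles, replicate 2 as open triangles and bars for 95% Clopper-Pearson intervals. The share of STK38L is 12.6% and 10.5% in WT and 4.29% and 3.04% in KD, and the shares of STK3 and CCN2 are also lower in both KD libraries.

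The KD libraries differed from the WT libraries along the GC content of exons, and several of the 10 genes are poor in GC. Over all genes tested, the log2 fold change and exonic GC content correlated at a Pearson's r of 0.63 (10943 genes of the same 4 libraries), and the median log2 fold change was -0.48 below 40% GC, -0.11 from 40% to 50% and 0.37 above 50%. The correlation was 0.38 for KD replicate 1 and 0.71 for KD replicate 2, each against the WT mean. Over the 10 genes it was 0.71, where the points share libraries and depth. STK38L had the lowest GC content of the 10 (36.6%), followed by STK3 (37.8%) and LATS1 (39.2%), and CCN2 (51.5%) and LATS2 (52.0%) had the highest. The smooth trend of the libraries on GC content and length amounted to -0.62 of the -1.45 of STK38L, -0.52 of the -0.70 of STK3, and 0.23 for CCN2.

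With this trend removed, the log2 fold change of STK38L was -0.90 (SE 0.16), and 2.05% of tested genes had a lower value. STK3 was then at -0.24 (SE 0.12), LATS1 at 0.11 (SE 0.10), STK4 at 0.20 (SE 0.11), YAP1 at 0.06 (SE 0.10) and WWTR1 at -0.02 (SE 0.12). The signs of LATS1, STK4 and YAP1 thus turned. STK38 was at 0.27 (SE 0.13) and CCN1 at 0.31 (SE 0.17), while LATS2 was at -0.25 (SE 0.10) and CCN2 at -0.31 (SE 0.15). The median over the 10 genes was 0.02. The corrected edgeR test called 351 genes lower (3.21%) and 230 higher (2.1%), and the corrected DESeq2 test 222 lower (2.03%) and 224 higher (2.05%), and in each STK38L was the member called, as lower, which is again a description of the contrast that chose it. The part of the trend in the remaining differences was not tested.

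**Figure D4:**
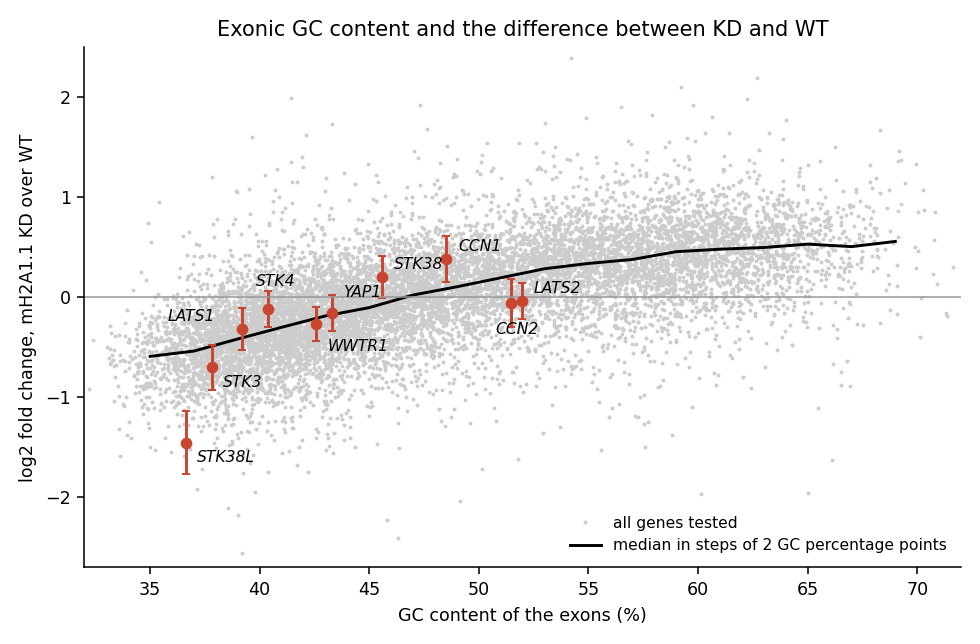
Log2 fold change of KD over WT (edgeR, 4 libraries) against the GC content of exons (%) for all 10943 genes tested (grey), with the 10 genes in red, bars for their standard errors and a line for the median in steps of GC content. The median line climbs with GC content, and STK38L lies below it at 36.6% GC while CCN2 and LATS2 lie below it at 51.5% and 52.0%.

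**Figure D5:**
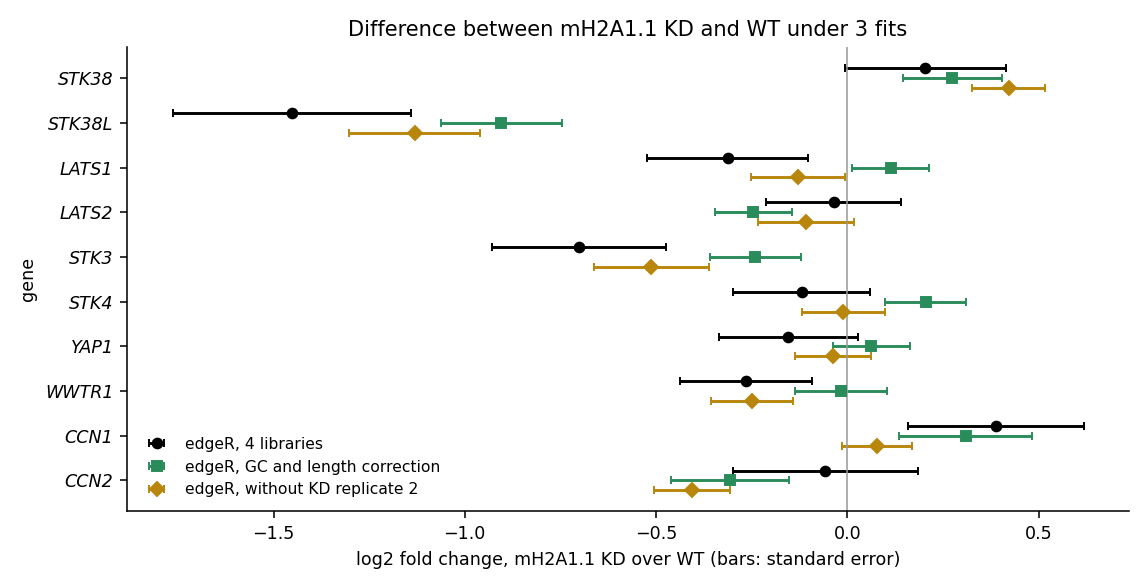
Log2 fold change of mH2A1.1 KD over WT for the 10 genes with standard errors, from edgeR on 4 libraries (black), with the GC and length correction (green) and without KD replicate 2 (ochre). STK38L is at -1.45, -0.90 and -1.13 in these fits, STK38 is above 0 in each, and LATS1, STK4 and YAP1 are on either side of 0. The ochre fit has 1 KD library, so its bars do not measure the spread within KD.

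The other genes of the pathway were described from 5 lists with 73 genes in the tables, of which 67 were tested. edgeR called 0 of the 67, with 10 lower and 5 higher at an unadjusted p under 0.05. DESeq2 called 5 lower and 3 higher, and the corrected edgeR test 3 lower and 1 higher, to be read against the shares of all genes given above. The median log2 fold change of the 67 was -0.02. The KD libraries were both lower than either WT library for 26 genes and both higher for 21. For all genes tested, 32.4% were lower and 32.5% higher in this way. An mH2A1.1 peak lay within 500 bp of the start of 30 of the 73 genes (41.1%). The share was 37.8% for the 23061 genes with a position and 46.9% for the 10943 genes tested for expression.

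The partners of the NDR kinases comprised the MOB and furry cofactors, the MST3, MST4 and YSK1 kinases and NDR substrates. Of the 10 tested, DESeq2 called MOB1A lower and MOB2 higher. MOB1A, which encodes a co-activator of both LATS and NDR, had 334 and 311 CPM in WT and 208 and 129 CPM in KD, a log2 fold change of -0.93 (SE 0.25) with an adjusted p of 0.193 in edgeR and 0.0307 in DESeq2. With the correction it was -0.40, under the fold change threshold. MOB2, which binds NDR but not LATS, had 11.4 and 12.8 CPM in WT and 16.1 and 39.8 CPM in KD, and its log2 fold change was 1.12 (SE 0.41, adjusted p = 0.196 in edgeR and 0.0673 in DESeq2). It was 0.42 without KD replicate 2 and 0.61 with the correction. MOB1B was at -0.66 (SE 0.29) and 0.00 with the correction, and STK25, the gene of YSK1, was at 0.65 (SE 0.27) and 0.19. Both passed the thresholds in edgeR without a filter on low counts and with libraries paired by replicate number. With pairing, 1131 genes were lower and 1069 higher of the 10943 tested. STK26, on the X chromosome and with an exonic GC content of 37.6%, had 294, 239 and 120 counts in the 3 libraries with values. Without KD replicate 2, edgeR gave a log2 fold change of -0.46 (SE 0.18). That fit does not measure the spread within KD, and the correction was not applied to it.

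Of the 25 tested cofactors and upstream regulators of the Hippo kinases, DESeq2 called SIKE1 lower and STRN4 higher. SIKE1 and STRN4 encode subunits of the STRIPAK phosphatase complex, which restrains MST kinases. SIKE1 had 103 and 94.8 CPM in WT and 55.6 and 49.2 CPM in KD, a log2 fold change of -0.91 (SE 0.18) with an adjusted p of 0.175 in edgeR and 0.0246 in DESeq2, and -0.39 with the correction. STRN4 was at 0.68 (SE 0.22), at 0.40 without KD replicate 2 and at 0.21 with the correction. WWC1, the gene of the scaffold KIBRA, was at 0.62 (SE 0.19), and RASSF1, which encodes an MST-binding protein, at 0.55 (SE 0.24). Neither was called by unpaired edgeR or DESeq2 on the 10943 genes. WWC1 passed both thresholds in edgeR without a filter on low counts (adjusted p = 0.0869) and with libraries paired by replicate number (adjusted p = 0.0486). It also passed them in DESeq2 on all chromosomes without a filter (adjusted p = 0.0219). Such calls were common, with 1025 genes higher without the filter, 1069 with pairing and 410 in that DESeq2 fit. With the correction WWC1 was at 0.36, under the fold change threshold. NF2, the gene of merlin on chromosome 22, had 223, 192 and 122 counts in the 3 libraries with values. Its log2 fold change was -0.07 without KD replicate 2, in a fit that does not measure the spread within KD.

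Of the 6 tested TEAD and VGLL genes, 0 were called by unpaired edgeR or DESeq2 on the 10943 genes, with or without the correction. In unpaired edgeR, 1 was lower at an unadjusted p under 0.05. VGLL3, a TEAD cofactor gene, had 21.4 and 19.5 CPM in WT and 13.8 and 9.94 CPM in KD, and its log2 fold change was -0.73 (SE 0.25, adjusted p = 0.193 in edgeR). It passed both thresholds in edgeR without a filter on low counts (adjusted p = 0.0549) and with libraries paired by replicate number (adjusted p = 0.0620). Such calls were common, with 1118 genes lower without the filter and 1131 with pairing. With the correction VGLL3 was at -0.33, under the fold change threshold. TEAD1, the TEAD gene with the highest count, was at -0.48 (SE 0.24), TEAD4 at 0.37 (SE 0.32) and TEAD3 at 0.23 (SE 0.17). With the correction TEAD4 and TEAD3 were on the other side of 0, at -0.14 and -0.17, and TEAD1 was at -0.29.

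Of the 19 other YAP target genes tested, 9 had both KD libraries lower and 6 had both higher than the WT libraries, against 32.4% and 32.5% of all genes tested, and the median log2 fold change was -0.13. DESeq2 called F3 and NT5E lower and FJX1 higher. F3, the gene of tissue factor, had 686 and 649 CPM in WT and 386 and 368 CPM in KD, and its log2 fold change was -0.82 (SE 0.17, adjusted p = 0.175 in edgeR and 0.0180 in DESeq2). The KD libraries of F3 were close to each other, and with the correction it was at -0.63 (adjusted p = 0.0351 in edgeR). NT5E, the gene of the ecto-nucleotidase CD73, was at -0.68 (SE 0.19) and at -0.54 with the correction. FJX1 was at 0.84 (SE 0.22) and at 0.37 with the correction. NUAK2, a kinase gene, was at -0.56 (SE 0.30) and at -0.93 with the correction, where edgeR called it, as it called CCDC80 as higher, at 0.63. NUAK2 had 40 and 27 counts in KD and was at -0.15 without KD replicate 1. DESeq2 gave NUAK2 no adjusted p, with or without the correction. CCDC80 was named after its values were seen. The target genes therefore stood on both sides of 0.

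Among the 7 other kinases of the AGC family most related to NDR and LATS, ROCK1 had the largest log2 fold change in size of the 67 tested genes in edgeR on 4 libraries, though not with the correction, where NUAK2 was at -0.93. ROCK1, the gene of a kinase that acts on actomyosin, had 231 and 219 CPM in WT and 114 and 84.3 CPM in KD. Its log2 fold change was -1.18 (SE 0.21), with an adjusted p of 0.175 in edgeR and 0.00123 in DESeq2, and -0.78 with the correction (adjusted p = 0.0146 in edgeR). Its paralogue ROCK2 was at -0.66 (SE 0.24) and at -0.21 with the correction. MASTL was at -0.58 (SE 0.24) and DMPK at 0.46 (SE 0.24), and neither was called by unpaired edgeR or DESeq2 on the 10943 genes. MASTL passed both thresholds in edgeR without a filter on low counts (adjusted p = 0.0832) and with libraries paired by replicate number (adjusted p = 0.0535). ROCK2 passed them in both settings too. Such calls were common, with 1118 genes lower without the filter and 1131 with pairing. With the correction MASTL was at -0.36, under the fold change threshold.

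The genes whose levels over the 4 libraries were most like those of STK38L were IPMK, NIPAL1, FAM241A, RAB11FIP2 and ZNF718, by the Euclidean distance of log2 CPM less its WT mean. Their distances ran from 0.0947 to 0.179, and their exonic GC content from 34.1% to 40.5%. IPMK, the nearest, had 54.6 and 46.7 CPM in WT and 24.0 and 12.3 CPM in KD. The log2 fold changes of the 5 ran from -1.51 to -1.34, and from -1.11 to -0.74 with the correction. Log2 fold changes near that of STK38L were fixed by this choice, which used the same 4 libraries.

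Of the genes beside STK38L, BMAL2, whose start lies 88868 bp downstream, had a log2 fold change of -0.41 (SE 0.25) and -0.08 with the correction. MED21, a Mediator subunit gene upstream, was at -0.86 (SE 0.33, adjusted p = 0.200 in edgeR) and at -0.43 with the correction, and TM7SF3 was at -0.24 (SE 0.22). SMCO2, with at most 23 counts in a library, was at 0.78 (SE 0.42) and at 1.01 with the correction, and C12orf71 and BMAL2-AS1 had 0. Counted genes that overlap a member on the other strand, WWTR1-AS1, STK4-DT, LINC01013, KCNS2 and ENSG00000278899, had at most 9 counts in any library.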

How the data were processed

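WT and mH2A1.1 KD cells gave 2 RNA-seq libraries each, and WT cells 1 ChIP-seq library per antibody. The members and lists were chosen with earlier results of these data known. The deposited RNA-seq tables hold raw counts per gene: the authors aligned reads to GRCh38 (STAR 2.5.1), kept those with a mapping quality of at least 10, removed duplicates and ran htseq-count at its default setting. The annotation behind the counts is not given in the sources used here. Reads that match paralogues equally are lost to these steps, and counts are per gene, not per isoform. The deposited peak positions, as base pairs, come from the authors' normR calls against the input on single libraries, and their scores are all 0, so no stricter score could be set.

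Here, 23061 of 23167 identifiers were matched to GENCODE release 44. The 106 others, with 0.120% to 0.176% of the counts, and genes of chromosomes 21, 22 and X were left out. The test was edgeR's quasi-likelihood test (version 4.0.16, R 4.3.3) with TMM factors and filterByExpr, with Benjamini-Hochberg adjustment over the 10943 genes kept and a common biological coefficient of variation of 0.166. The SE given for edgeR is the log2 fold change in size divided by the square root of the F statistic of this test. DESeq2 1.42.0 was an alternative and gave an adjusted p to 8185 genes. Labels do not say whether replicates were separate cultures, so p-values measure the spread between these libraries, which may be technical. The correction subtracted lowess trends (span 0.3) of each library on exonic GC content and length. On data simulated for the edgeR comparison with 10845 genes, edgeR recovered 42% of log2 changes of 1 and 97% of changes of 2, and DESeq2 49% and 92%. The simulated libraries had no trend on GC content, unlike the real ones, so these shares need not hold for the real comparison.

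Named genes were all members, MACROH2A1, in each list every gene called by edgeR or else the largest log2 fold changes until 4 were named, the 5 genes most like STK38L with a mean of at least 50 counts, genes starting within 250 kb of it, and genes overlapping a member on the other strand. CCDC80, STK26 and NF2 are outside this rule. The ChIP-seq input and 4 PCHiC samples are not analysed here.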

Additional observations from a re-analysis of the deposited data

How the results depend on the processing

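STK38L was lower in KD in all 13 alternative settings, with log2 fold changes from -2.13 to -0.90. All 13 refit the same libraries, or a part of them, in the contrast that chose STK38L. Their shared sign is therefore a description and not independent support. STK3 and WWTR1 were also below 0 and CCN1 above 0 in all 13, whereas the signs of STK38, LATS1, LATS2, STK4, YAP1 and CCN2 turned in at least 1. The log2 fold change of STK38L was -0.90 with the GC and length correction in edgeR and -0.93 in DESeq2. With each library left out in turn it ran from -2.13 (without KD replicate 1) to -1.13 (without KD replicate 2). The common coefficient of variation was 0.361 with all chromosomes and 0.0947 with the correction.

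Counts of called genes depended on the setting more than the fold changes did, and the cause was not tested. Against 0 lower and 0 higher genes in edgeR, of which 0 and 0 in the pathway lists, DESeq2 called 445 and 472 (5 and 3 in the lists), edgeR without a filter on low counts 1118 and 1025 (9 and 5), edgeR with the correction 351 and 230 (3 and 1), DESeq2 with the correction 222 and 224 (2 and 1), and DESeq2 on all chromosomes without a filter, chosen after seeing the data, 535 and 410 (5 and 3). Leaving out a library gave 2 to 2419 lower genes and 0 to 2316 higher genes. These were 2 and 0 without WT replicate 1, 12 and 5 without WT replicate 2, 2419 and 2316 without KD replicate 1 and 599 and 309 without KD replicate 2, and in the lists 0 to 18 lower and 0 to 10 higher. The lone library of a group was assumed to vary like the other group. With all chromosomes and without KD replicate 2, also added after seeing the data, the lists had 5 and 1.

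Replicate numbers are shared by both groups, but nothing says that they pair the libraries, and the differences between replicates 1 and 2 in WT and KD correlated at 0.25 across 10943 genes. With a replicate block, 1131 genes were lower and 1069 higher (9 and 5 in the lists), and the log2 fold change of STK38L was -1.53. With the block and the correction these were 462 and 381 (3 and 2 in the lists) and -0.95.

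The share of STK38L in the NDR pair was 7.88 percentage points lower in KD, and 6.81 to 8.96 points lower with a library left out. The number of members with an mH2A1.1 peak at the start was 8 within 1000 or 3000 bp and 9 at any annotated transcript start, but 2 for peaks shared with total mH2A1 and 1 for peaks at least 50% covered by it. Depth limits the values most in KD replicate 2, where STK38L had 22 counts.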
